A study of Mus musculus with 12 samples.

Results

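The tumour necrosis factor (TNF) superfamily genes of 12 mouse breast tumours were examined: 16 ligand genes and 23 receptor genes, 39 of the 55487 genes counted. They were chosen by name, as the protein-coding genes whose symbol begins with Tnfsf or Tnfrsf together with Tnf, Lta, Ltb, Ltbr, Fas, Fasl, Cd40 and Cd40lg. Of the 23 receptors, 5 carry the cytoplasmic death domain that couples a receptor to caspases (Tnfrsf1a, Fas, Tnfrsf10b, Tnfrsf25 and Tnfrsf21). The other 18 are costimulatory receptors, B cell survival receptors, decoys and further receptors that bind TRAF adaptors, so the set is wider than death receptors alone.

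All mice were MMTV-PyMT animals of the C57BL/6J strain, in which a mouse mammary tumour virus promoter expresses the polyoma virus middle T antigen in mammary epithelial cells. The 6 Bad3SA mice carried a form of BAD, a pro-apoptotic BCL2 family protein, whose regulatory serines cannot take a phosphate group, and the 6 Bad+/+ mice carried wild-type Bad. Each library was the polyadenylated RNA of 1 tumour from a different mouse, taken at an end point between 22.9 and 31.1 weeks in Bad3SA mice (27.4 ± 2.85, SD, n = 6) and between 21.3 and 27.1 weeks in Bad+/+ mice (24.1 ± 1.94, SD, n = 6), so the Bad3SA mice were older on average.

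TNF superfamily ligands are mostly membrane proteins that act as trimers on matching receptors of the same family. Receptors with a death domain can assemble a complex that activates caspase 8 and, where survival signalling fails, kill the cell. Most receptors without one bind TRAF adaptors and activate NF-κB, and on lymphocytes they act as costimulatory or survival receptors. Decoy receptors bind ligand without passing on a death signal. BAD acts in the other, mitochondrial, route to apoptosis, where phosphorylation keeps it inactive.

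Total counts ran from 58096172 to 83296370 per tumour, and 3 counts corresponded to 0.036 to 0.0516 CPM, in which counts are scaled to a common library size. Library sizes were adjusted by the TMM method, and a log2 fold change above 0 is higher in Bad3SA. In a principal component analysis of all genes, the second component set Bad3SA 4, 5 and 6 off from the rest, and Bad+/+ 6 was extreme on the first. Values without Bad3SA 4 to 6 are given where they matter. The label of breast tumour was checked on 6 luminal epithelial markers, whose CPM summed to 4267 to 6227 in Bad3SA tumours and 4776 to 6006 in Bad+/+ tumours, with no marker at 0. In bulk tumour RNA, fewer cells of a type and less RNA per cell cannot be told apart.

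Sequence upstream of the receptor and ligand genes was available from RefSeq (build GRCm38.p6) for 30 of the 39 genes, with 34 start sites. The 250 bases before each start were searched on both strands for the NF-κB consensus, since NF-κB is the main transcription factor downstream of these receptors. A match was found before 3 genes, Ltb, Tnfrsf8 and Tnfrsf9, that is in 3 of 34 windows, against 1281 of 32851 windows of all genes (3.9%). They are shown with 10 bases on the 5′ side, the match in capitals, and the sequence on the strand of the gene. The Tnfrsf9 stretch in capitals is made of overlapping matches and lies before one of its start sites only. These letters are a description of the windows, and binding was not measured.
Ltb, chr17:35194410-35194439, plus strand: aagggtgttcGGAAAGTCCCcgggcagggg
Tnfrsf8, chr4:145315313-145315342, minus strand: tcaaaacgcaGGGGAGCCCCctgcgtgcgt
Tnfrsf9, chr4:150927946-150927975, plus strand: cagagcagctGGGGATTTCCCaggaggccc

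The matches lie 87 to 78 bases before the start of Ltb, 168 to 159 bases before that of Tnfrsf8 and 43 to 33 bases before that of Tnfrsf9. Tnfrsf25, the gene with the smallest p among those examined, had no match in the windows of its start sites. The 250 bases directly before its first start, which hold 8 CG pairs and are 61.6% G or C, are shown because it was the only gene of the set that any fit called.
Tnfrsf25, chr4:152115684-152115933, plus strand: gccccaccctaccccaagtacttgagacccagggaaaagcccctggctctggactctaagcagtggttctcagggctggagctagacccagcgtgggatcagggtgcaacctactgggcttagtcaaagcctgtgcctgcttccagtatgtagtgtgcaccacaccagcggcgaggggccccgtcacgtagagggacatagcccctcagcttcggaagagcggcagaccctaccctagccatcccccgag

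Receptor genes filled the top of the order of levels. Per kilobase of exon, the 5 most abundant genes were all receptors: Tnfrsf12a, Tnfrsf1a, Ltbr, Tnfrsf21 and Tnfrsf19. The first 4 averaged 66.1, 64.8, 44.4 and 37.3 CPM per kb over the 12 tumours, and Tnfrsf19 averaged 11.5 CPM per kb in Bad3SA and 12.4 CPM per kb in Bad+/+ tumours. Tnfrsf12a encodes FN14, the receptor for TWEAK. It averaged 66.4 ± 10.6 CPM per kb in Bad3SA tumours and 65.8 ± 21.2 CPM per kb in Bad+/+ tumours (SD, n = 6 each). Tnfrsf1a encodes TNFR1, the main receptor for soluble TNF. It averaged 63.8 ± 13.5 CPM per kb in Bad3SA and 65.7 ± 8.03 CPM per kb in Bad+/+ tumours (SD, n = 6 each). Their ligands were far lower. Over the 12 tumours Tnfsf12, which encodes TWEAK, was at 4.24 CPM per kb and Tnf at 1.55 CPM per kb. By this measure the most abundant ligand was Tnfsf10, which encodes TRAIL, at 5.56 CPM per kb. Tnfsf12 and Tnfsf13 share 731 and 983 exon bases with the read-through gene Tnfsfm13 on the same strand. How reads in shared bases were counted was not given. The levels of Tnfsf12 and Tnfsf13 per kb, and their order against Tnfsf10, are therefore uncertain. In all, 20 genes averaged at least 1 CPM per kb and 5 were under 0.1 CPM per kb. In the order of levels, the ranges of all 38 neighbouring pairs overlapped. Tumour by tumour, the higher gene led in all 12 for 2 of these pairs, Tnfrsf1a over Ltbr and Tnfrsf21 over Tnfrsf19.

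**Figure D1:**
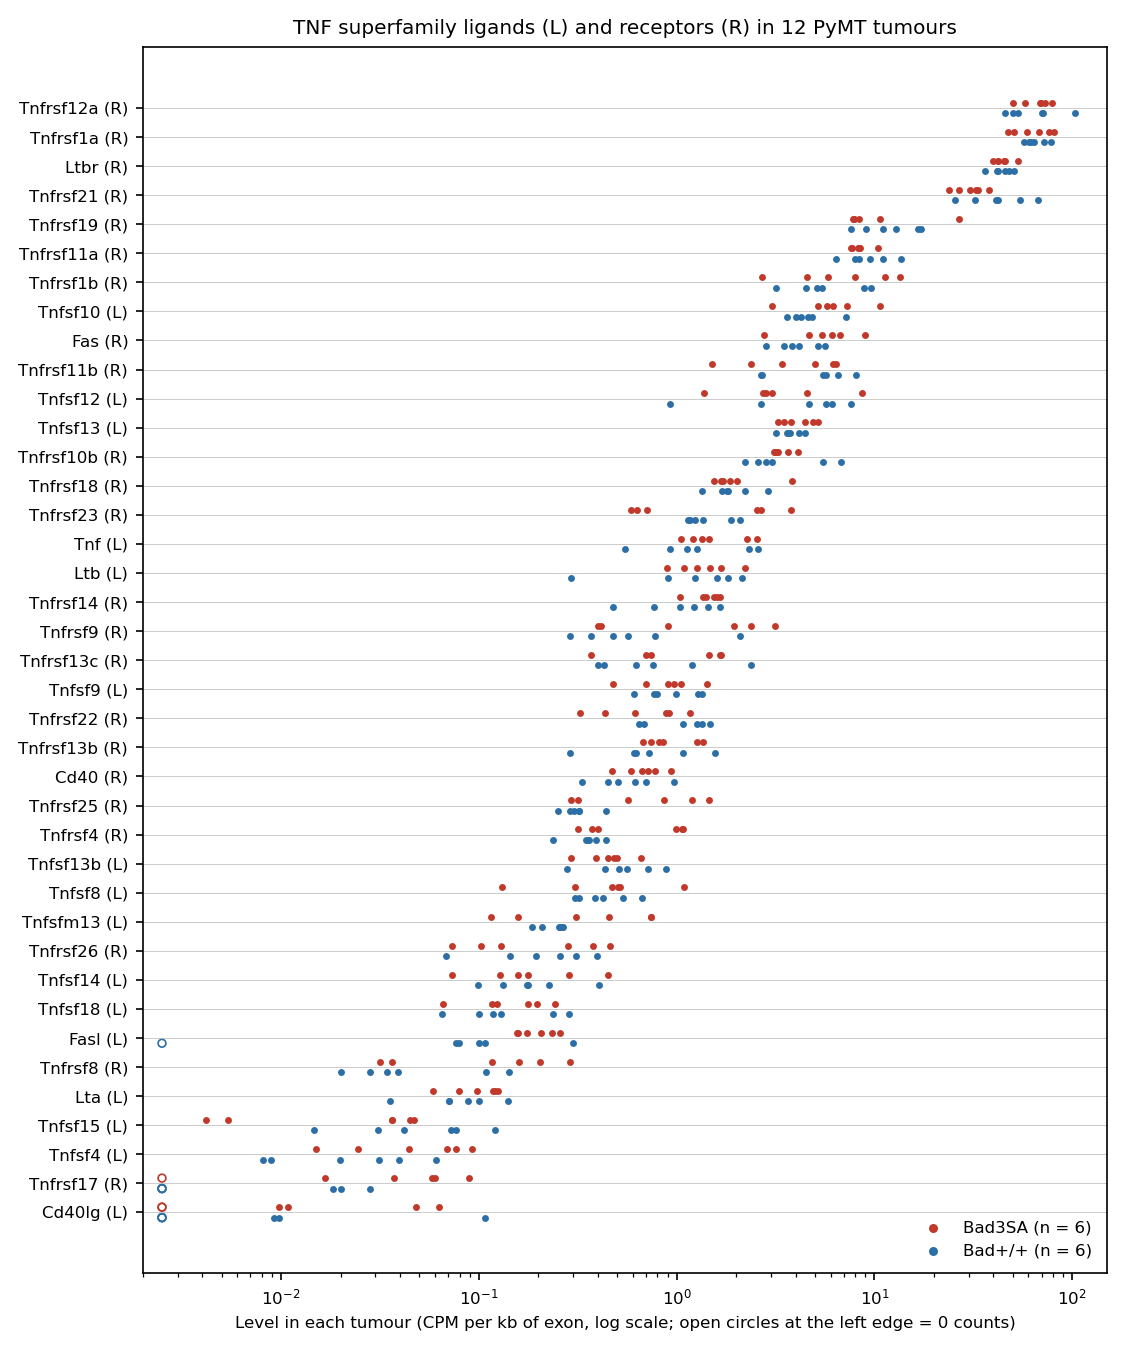
Level of each ligand (L) and receptor (R) gene in each tumour, in CPM per kb of exon on a log axis, with Bad3SA tumours in red above Bad+/+ tumours in blue and genes ordered by their mean over 12 tumours; open circles at the left edge are tumours with 0 counts. Receptors fill the top 7 places, and in every row the colours overlap.

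Of the 39 genes, 35 passed the filter on low counts and none passed an adjusted p of 0.05 in edgeR's quasi-likelihood test, where 1.38% of the 18019 genes tested did (249 genes, 0.622% higher and 0.76% lower in Bad3SA). At an unadjusted p under 0.05 there were 3, Tnfrsf25 and Tnfrsf4 above 0 and Tnfrsf21 below 0, against 16.2% of all genes, 7.18% higher and 9.02% lower. The ranges of the genotypes overlapped for every one of the 35, where they did not overlap for 2.23% of all genes. The fold change was above 0 for 24 genes and below 0 for 11, where 9090 of all 18019 genes were above 0. The set had a median log2 fold change of 0.13, against 0.00 over all genes tested. In DESeq2 and in edgeR without the filter, which cover more genes, the median of all genes was 0.16 and 0.13, above the 0.12 and 0.10 of the set. Other fits called at most 1 of these genes. With end-point age in the edgeR model none of the 35 passed (0.405% of all genes did), and without Bad3SA 4 to 6 none of 36 did (0.795% of all genes). DESeq2 run on the same counts called 4.21% of 23710 genes, with Tnfrsf25 alone among 38 of the genes examined, and the authors' deposited table called 4.02% of 23711 genes, again with Tnfrsf25 alone among 38.

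**Figure D2:**
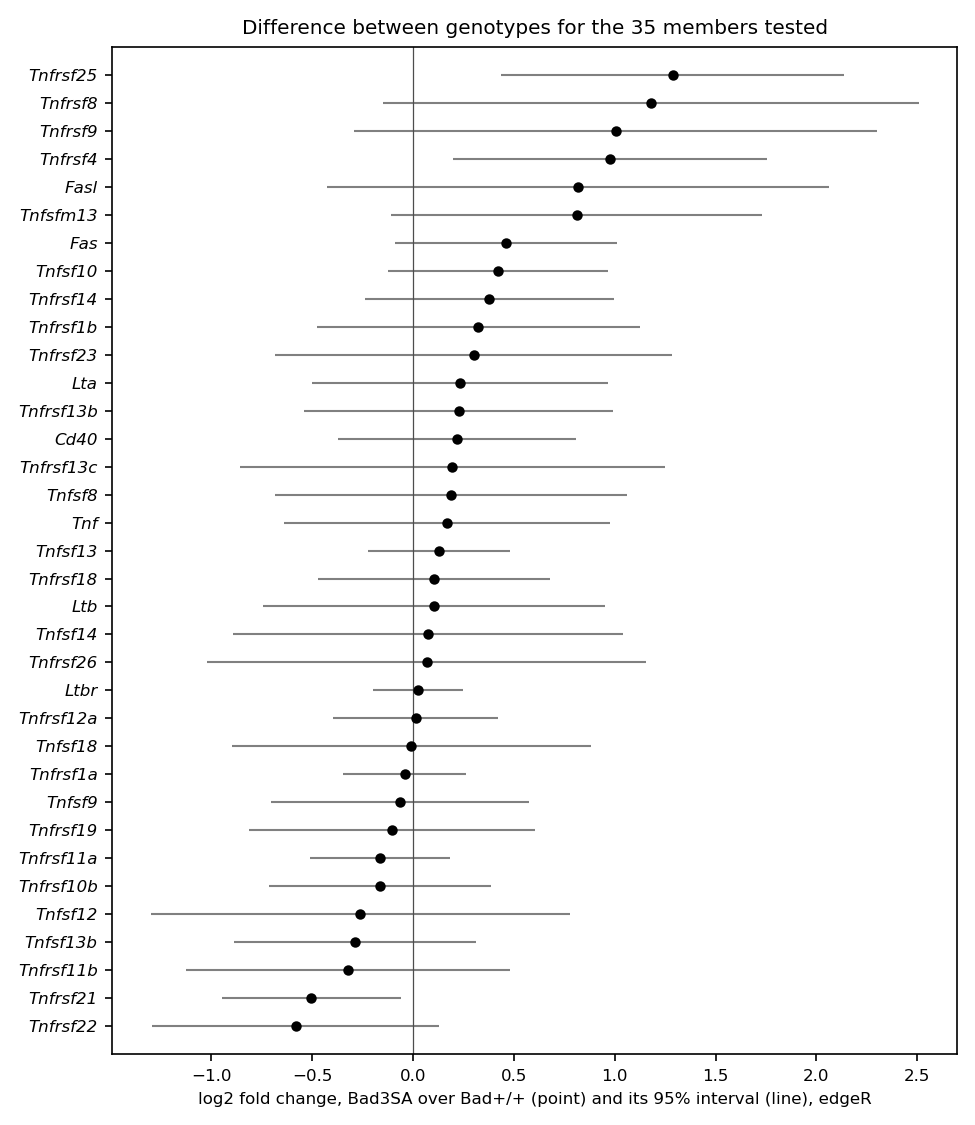
Log2 fold change of Bad3SA over Bad+/+ for the 35 genes tested (points) with its 95% interval (lines), from edgeR. Tnfrsf25 and Tnfrsf4 lie above 0 and Tnfrsf21 below 0 with intervals that do not reach 0, none passed after adjustment over all genes, and the intervals of the other 32 include 0.

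Among the inflammatory cytokines, Tnf itself was low and did not differ detectably. Tnf had 1.72, 2.30 and 4.17 CPM as the lowest, median and highest Bad3SA values, against 0.898, 1.96 and 4.24 CPM in Bad+/+ tumours, and its log2 fold change was 0.17 (SE 0.38, edgeR adjusted p = 0.841). The Bad3SA range lay inside the Bad+/+ range. The lymphotoxin genes, whose products build lymphoid structures through the lymphotoxin beta receptor, were at a like level for Ltb and lower for Lta, at 1.39 and 0.0921 CPM per kb over the 12 tumours. Ltb ran from 1.35 to 3.36 CPM in Bad3SA and 0.441 to 3.25 CPM in Bad+/+ tumours, and Lta from 0.0812 to 0.172 CPM in Bad3SA and 0.049 to 0.194 CPM in Bad+/+ tumours. Without Bad+/+ 6, where Tnf was lowest, the log2 fold change of Tnf was -0.00286.

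Among the death ligands, the highest counts were those of Tnfsf10, whose product TRAIL can trigger apoptosis through its death receptor. It had 16.1, 31.5 and 56.4 CPM as the lowest, median and highest Bad3SA values, against 19.0, 23.4 and 38.0 CPM in Bad+/+ tumours (log2 fold change 0.42, SE 0.25, edgeR adjusted p = 0.420). Bad3SA 1 and 3 exceeded every Bad+/+ tumour, while Bad3SA 6 was the lowest of the 12. The log2 fold change was 0.75 without Bad3SA 4 to 6 (edgeR adjusted p = 0.229). Fasl, made by cytotoxic lymphocytes, had 0.302, 0.369 and 0.50 CPM in Bad3SA tumours and 0, 0.174 and 0.577 CPM in Bad+/+ tumours. All 6 Bad3SA tumours were above the Bad+/+ median, but none exceeded the highest Bad+/+ tumour (log2 fold change 0.82, SE 0.58, edgeR adjusted p = 0.485). The log2 fold change was 1.43 without Bad+/+ 2 and 0.57 without Bad+/+ 6. Bad+/+ 6, which had 0 counts of Fasl, also had the lowest sum of T cell markers.

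Tnfsf12, the TWEAK gene, was among the most variable of the 35. It had 2.09, 4.45 and 13.1 CPM in Bad3SA tumours and 1.40, 7.86 and 11.6 CPM in Bad+/+ tumours, and its log2 fold change was -0.26 (SE 0.48, edgeR adjusted p = 0.803). Bad3SA 5 was the highest of all and the other 5 Bad3SA tumours were at or below 6.88 CPM, inside the Bad+/+ range. Tnfsf15, which encodes TL1A, the ligand of the Tnfrsf25 product, had only 41 counts over the 6 Bad3SA tumours and 90 over the 6 Bad+/+ tumours and did not pass the filter. DESeq2, which kept it, gave a log2 fold change of -1.04 (SE 0.62, adjusted p = 0.397).

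The ligands that costimulate lymphocytes were scarce in both genotypes. Of the 6, Cd40lg, with 11 counts over the Bad3SA tumours and 13 over the Bad+/+ tumours, did not pass the filter on low counts. Neither did Tnfsf4, which encodes the OX40 ligand and had 41 counts over the Bad3SA tumours and 24 over the Bad+/+ tumours. The other 4, Tnfsf8, Tnfsf9, Tnfsf14 and Tnfsf18, had a median log2 fold change of 0.03, and none passed. Tnfsf8, which encodes the CD30 ligand, ran from 0.501 to 4.14 CPM in Bad3SA and 1.17 to 2.53 CPM in Bad+/+ tumours, with Bad3SA 1 above and Bad3SA 5 and 6 below the whole Bad+/+ range. Tnfsf9, which encodes the ligand of the Tnfrsf9 product, ran from 0.617 to 1.84 CPM in Bad3SA and 0.785 to 1.73 CPM in Bad+/+ tumours. The exons of Tnfsf9 share 192 bases with the gene Gm11110 on the other strand.

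The B cell survival ligands were present at modest levels. Tnfsf13, which encodes APRIL, was steady, at 5.30 to 8.45 CPM in Bad3SA and 5.21 to 7.32 CPM in Bad+/+ tumours, and Tnfsf13b, which encodes BAFF, ran from 2.02 to 4.51 CPM in Bad3SA and 1.91 to 6.04 CPM in Bad+/+ tumours. Tnfsfm13 is the read-through gene that joins Tnfsf12 and Tnfsf13. It had 0.257, 0.855 and 1.66 CPM in Bad3SA tumours and 0.417, 0.570 and 0.596 CPM in Bad+/+ tumours (log2 fold change 0.81, SE 0.43, edgeR adjusted p = 0.365). Bad3SA 3 to 6 lay above the whole Bad+/+ range and Bad3SA 1 and 2 below it. The log2 fold change turned to -0.29 without Bad3SA 4 to 6 (edgeR adjusted p = 0.803). Its exons share 731 bases with Tnfsf12 and 983 bases with Tnfsf13 on the same strand, and 253 bases with the antisense gene Tnfsf13os. The exons of Tnfsf13 share 221 bases with Tnfsf13os. The counts of Tnfsfm13, and those of Tnfsf12 and Tnfsf13, are therefore uncertain. Tnfsf13os was at 6.88, 11.7 and 9.60 CPM in Bad3SA 4, 5 and 6, between 2.76 and 3.72 CPM in Bad3SA 1 to 3, and between 2.06 and 3.5 CPM in Bad+/+ tumours. Whether counting used strand is not stated in what was available. In the shared bases, reads of the antisense gene therefore cannot be told apart from those of Tnfsfm13 or Tnfsf13.

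Among the death-domain receptors, Tnfrsf25 and Fas were above 0, and Tnfrsf21, Tnfrsf10b and Tnfrsf1a below, with a median log2 fold change of -0.04. Tnfrsf25 (ENSMUSG00000024793, GRCm38 chromosome 4, 152115934 to 152120119, plus strand) encodes DR3, a death-domain receptor that costimulates T cells. It had 0.663, 1.63 and 3.32 CPM as the lowest, median and highest Bad3SA values, against 0.571, 0.707 and 0.996 CPM in Bad+/+ tumours. Bad3SA 3, 4, 5 and 6, at 2.72, 3.32, 1.29 and 1.98 CPM, exceeded every Bad+/+ tumour, whereas Bad3SA 1 and 2, at 0.663 and 0.720 CPM, did not leave the Bad+/+ range. The means were 1.78 ± 1.09 CPM in Bad3SA and 0.728 ± 0.144 CPM in Bad+/+ tumours (SD, n = 6 each), and the log2 fold change was 1.29 (SE 0.39, 95% interval 0.44 to 2.14, edgeR adjusted p = 0.147).

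Whether Tnfrsf25 passed depended on the tool. In DESeq2 its log2 fold change was 1.28 (SE 0.38) with an adjusted p of 0.0264. The authors' deposited table gives -1.06 in the direction of Bad+/+ over Bad3SA, that is higher in Bad3SA, with an adjusted p of 0.0272. Without Bad3SA 4 to 6 the log2 fold change was 0.91 (edgeR adjusted p = 0.431). T cells are a usual source of this transcript. The CPM of 16 T cell markers summed to between 21.9 and 39.7 in Bad3SA tumours and between 17.2 and 25.8 in Bad+/+ tumours, with Bad3SA 2, 4 and 5 above the highest Bad+/+ tumour and no marker at 0 in any tumour. No marker of that list passed on its own. Bad3SA 3 and 6, which also exceeded every Bad+/+ tumour for Tnfrsf25, had sums of 24.8 and 21.9 CPM. Across the 12 tumours Tnfrsf25 and the T cell markers had r = 0.337 (permutation p = 0.288, adjusted p = 0.65) and rho = 0.28 (permutation p = 0.376, adjusted p = 0.783), with r = 0.294 without the 2 tumours farthest from the median of the markers. Within the genotypes r was 0.0628 in Bad3SA and -0.00275 in Bad+/+ tumours. Which cells the transcript came from was not tested.

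Tnfrsf21 encodes DR6 and was the only death-domain receptor below 0 at an unadjusted p under 0.05. It had 97.4, 130 and 157 CPM in Bad3SA tumours and 105, 171 and 275 CPM in Bad+/+ tumours, with means of 127 ± 21.1 CPM in Bad3SA and 180 ± 61.4 CPM in Bad+/+ tumours (SD, n = 6 each). Bad+/+ 5 and 6 were the highest, at 224 and 275 CPM, and all Bad3SA tumours but Bad3SA 6 lay inside the Bad+/+ range (log2 fold change -0.50, SE 0.21, 95% interval -0.95 to -0.06, edgeR adjusted p = 0.260).

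Fas encodes the receptor of FAS ligand, a classic trigger of apoptosis. It had 5.70, 11.9 and 18.4 CPM in Bad3SA tumours and 5.82, 8.26 and 11.7 CPM in Bad+/+ tumours (log2 fold change 0.46, SE 0.26, edgeR adjusted p = 0.385). Bad3SA 1, 2 and 3 exceeded every Bad+/+ tumour, and without Bad3SA 4 to 6 the log2 fold change was 0.80 (edgeR adjusted p = 0.181). Tnfrsf10b encodes the only mouse TRAIL receptor with a death domain. It ran from 17.0 to 22.3 CPM in Bad3SA tumours and from 12.1 to 36.9 CPM in Bad+/+ tumours. The Bad3SA tumours were the tighter group and lay inside the Bad+/+ range (log2 fold change -0.16, SE 0.26, edgeR adjusted p = 0.762). All 6 Bad3SA tumours were above the Bad+/+ median. Bad+/+ 5 and 6 were at 29.9 and 36.9 CPM, and Bad+/+ 1 to 4 between 12.1 and 16.6 CPM.

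Tnfrsf1a, the TNFR1 gene, showed no detectable difference. It had 123, 165 and 209 CPM in Bad3SA tumours and 148, 164 and 203 CPM in Bad+/+ tumours. Bad3SA 2 lay above the Bad+/+ range and Bad3SA 4 and 6 below it. The log2 fold change was -0.04 (SE 0.14, 95% interval -0.35 to 0.26, edgeR adjusted p = 0.899), and it turned to 0.20 without Bad3SA 4 to 6.

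The decoy receptors bind ligand without passing on a death signal. Tnfrsf22, Tnfrsf23 and Tnfrsf26 are neighbouring mouse paralogs on chromosome 7, the first pair known as TRAIL decoys, and reads in stretches they share could be split between them. Tnfrsf23 had 2.34, 6.48 and 14.9 CPM in Bad3SA tumours and 4.50, 5.15 and 8.32 CPM in Bad+/+ tumours. Bad3SA 1, 2 and 3, at 14.9, 10.2 and 10.6 CPM, lay above the whole Bad+/+ range and Bad3SA 4, 5 and 6, at 2.79, 2.34 and 2.49 CPM, below it. The log2 fold change over all tumours was therefore near the middle, at 0.30 (SE 0.46, edgeR adjusted p = 0.758), and without Bad3SA 4 to 6 it was 1.03 (SE 0.25, edgeR adjusted p = 0.105). Without Bad3SA 1 it turned to -0.05. Such a split, with every Bad3SA tumour outside the Bad+/+ range and on both sides of it, was seen for 2 of the 35 genes, Tnfrsf23 and Tnfsfm13, and for 0.649% of all genes tested.

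Tnfrsf22 had 1.36, 3.15 and 4.92 CPM in Bad3SA tumours and 2.72, 4.94 and 6.23 CPM in Bad+/+ tumours (log2 fold change -0.58, SE 0.33, edgeR adjusted p = 0.391). Bad3SA 4, 5 and 6 lay below the whole Bad+/+ range and Bad3SA 1 to 3 within it, and without Bad3SA 4 to 6 the log2 fold change was -0.11. Tnfrsf26 had 0.236, 0.662 and 1.49 CPM in Bad3SA tumours and 0.220, 0.725 and 1.28 CPM in Bad+/+ tumours (log2 fold change 0.07, SE 0.51, edgeR adjusted p = 0.955). In these 3 paralogs the Bad3SA 4, 5 and 6 tumours held the lowest Bad3SA values. Sums of 5 basal epithelial markers moved with this split, at 1076, 1344 and 1192 CPM in Bad3SA 1, 2 and 3 and 652, 675 and 604 CPM in Bad3SA 4, 5 and 6, against 358 to 1716 CPM in Bad+/+ tumours, with no marker at 0. Sums of 5 neutrophil markers split the same way, at 17.8, 11.6 and 11.3 CPM in Bad3SA 1, 2 and 3 and 6.32, 9.44 and 8.17 CPM in Bad3SA 4, 5 and 6. They ran from 2.64 to 74.4 CPM in Bad+/+ tumours, with Ly6g at 0 in some tumour. Neither list was among the 6 set against the genes below, and both were named after the split was seen. The other marker lists did not split this way. Luminal epithelial sums were 6227, 5166 and 5299 CPM in Bad3SA 1, 2 and 3 and 4468, 5718 and 4267 CPM in Bad3SA 4, 5 and 6. Macrophage sums were 571, 925 and 632 CPM in Bad3SA 1, 2 and 3 and 549, 800 and 382 CPM in Bad3SA 4, 5 and 6. The part of basal epithelial cells and neutrophils in the pattern was not tested. Tnfrsf11b, which encodes osteoprotegerin, a secreted decoy, ran from 4.24 to 18.1 CPM in Bad3SA and 7.52 to 22.8 CPM in Bad+/+ tumours, again lowest in Bad3SA 5 and 6.

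**Figure D3:**
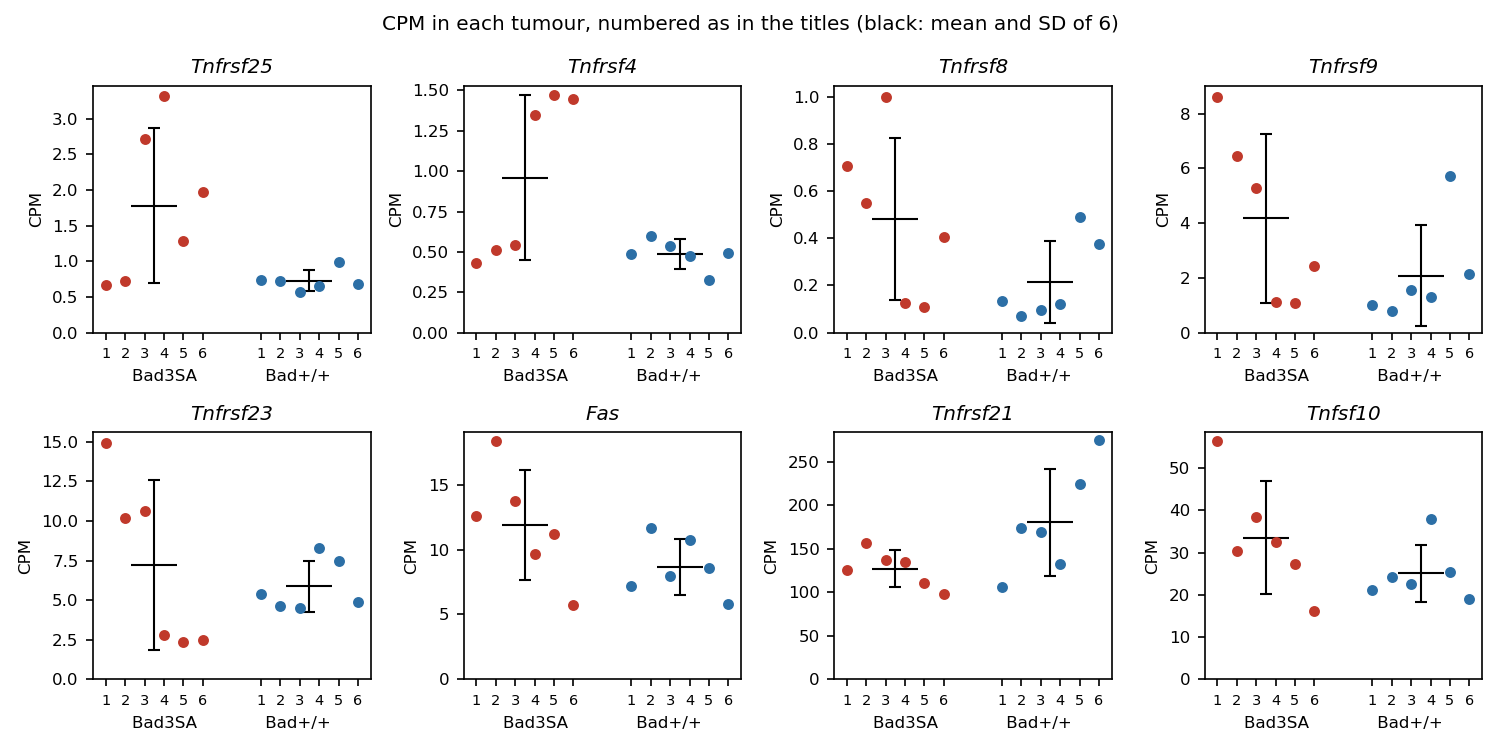
CPM of 8 genes in each of the 6 Bad3SA tumours (red, left) and 6 Bad+/+ tumours (blue, right), with the mean and SD of each genotype in black; each panel has its own axis from 0. Tnfrsf4 is high in Bad3SA 4 to 6 only, and Tnfrsf8 and Tnfrsf23 are highest in Bad3SA 1 to 3. Tnfrsf9 is high in Bad3SA 1 to 3, with Bad+/+ 5 among them, and Bad+/+ 5 is next below them for Tnfrsf8.

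The 6 costimulatory receptors, which amplify the activation of lymphocytes, all had fold changes above 0, as did 9090 of the 18019 genes tested. The median log2 fold change of the 6 was 0.68, against 0.00 over all genes, and none passed. With end-point age in the model, Cd40 and Tnfrsf18 turned below 0. The tumours that carried the higher values were not the same for each gene. Tnfrsf4, which encodes OX40, had 0.433, 0.946 and 1.47 CPM in Bad3SA tumours and 0.323, 0.489 and 0.600 CPM in Bad+/+ tumours. Bad3SA 4, 5 and 6, at 1.35, 1.47 and 1.45 CPM, exceeded every Bad+/+ tumour, and Bad3SA 1 to 3 lay within the Bad+/+ range (log2 fold change 0.98, SE 0.36, edgeR adjusted p = 0.218). Without Bad3SA 4 to 6 the log2 fold change was 0.0423 (edgeR adjusted p = 0.970). A model that also held age gave 0.51 (edgeR adjusted p = 0.888). The authors' deposited table gives Tnfrsf4 an adjusted p of 0.108.

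Tnfrsf9, which encodes 4-1BB, and Tnfrsf8, which encodes CD30, were high in the other 3 Bad3SA tumours. Tnfrsf9 had 1.09, 3.87 and 8.59 CPM in Bad3SA tumours and 0.785, 1.42 and 5.72 CPM in Bad+/+ tumours (log2 fold change 1.01, SE 0.60, edgeR adjusted p = 0.416). Bad3SA 1, 2 and 3 had 8.59, 6.46 and 5.30 CPM, and Bad+/+ 5, at 5.72 CPM, lay among them. Tnfrsf8 had 0.109, 0.476 and 0.997 CPM in Bad3SA tumours and 0.0693, 0.127 and 0.491 CPM in Bad+/+ tumours (log2 fold change 1.18, SE 0.62, edgeR adjusted p = 0.362). Bad3SA 1, 2 and 3 exceeded every Bad+/+ tumour. Without Bad3SA 4 to 6 the log2 fold changes were 1.73 for Tnfrsf9 (edgeR adjusted p = 0.222) and 1.83 for Tnfrsf8 (edgeR adjusted p = 0.223). The sum of T cell markers was 24.9, 27.5 and 24.8 CPM in Bad3SA 1, 2 and 3 and 31.6, 39.7 and 21.9 CPM in Bad3SA 4, 5 and 6. The basal epithelial and neutrophil sums given above were, like these receptors, higher in Bad3SA 1, 2 and 3 than in Bad3SA 4, 5 and 6. In Bad+/+ 1 to 6, in order, the basal sums were 465, 900, 358, 1716, 798 and 461 CPM. The neutrophil sums of the same tumours were 2.64, 4.675, 5.08, 74.4, 13.8 and 15.2 CPM. Tnfrsf9 was at 1.00, 0.785, 1.54, 1.30, 5.72 and 2.12 CPM in them, and Tnfrsf8 at 0.134, 0.0693, 0.0973, 0.119, 0.491 and 0.376 CPM. The part of basal epithelial cells and neutrophils in the pattern of these receptors was not tested.

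The remaining costimulatory receptors differed little. Tnfrsf14, which encodes HVEM, ran from 1.49 to 2.38 CPM in Bad3SA and 0.686 to 2.38 CPM in Bad+/+ tumours (log2 fold change 0.38, SE 0.29, edgeR adjusted p = 0.511). Cd40, found on B cells, macrophages and dendritic cells, ran from 1.61 to 3.19 CPM in Bad3SA and 1.13 to 3.32 CPM in Bad+/+ tumours, and its log2 fold change of 0.22 (edgeR adjusted p = 0.697, SE 0.27) turned to -0.18 with end-point age in the model. Tnfrsf18, which encodes GITR, ran from 2.37 to 5.81 CPM in Bad3SA and 2.05 to 4.39 CPM in Bad+/+ tumours. Its log2 fold change of 0.11 (edgeR adjusted p = 0.860, SE 0.27) rested on Bad3SA 5 and was -0.15 without it. Its exons share 414 bases with the gene Gm16008.

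The B cell receptors for BAFF and APRIL were low. Tnfrsf13b, which encodes TACI, ran from 1.92 to 3.85 CPM in Bad3SA and 0.817 to 4.45 CPM in Bad+/+ tumours, and Tnfrsf13c, which encodes the BAFF receptor, from 0.758 to 3.43 CPM in Bad3SA and 0.819 to 4.85 CPM in Bad+/+ tumours. Tnfrsf17, which encodes the plasma cell receptor BCMA, had 14 counts over the Bad3SA tumours and 4 over the Bad+/+ tumours and did not pass the filter. Tnfrsf13c was highest in Bad+/+ 6, at 4.85 CPM, the tumour whose 9 B cell markers summed to 1.29 CPM, the lowest of the 12.

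The other receptors bind TRAF adaptors without a death domain, and they include the most abundant genes of the set. Tnfrsf12a had 97.1, 134 and 153 CPM in Bad3SA tumours and 88.1, 120 and 199 CPM in Bad+/+ tumours (log2 fold change 0.01, SE 0.19, edgeR adjusted p = 0.976). The Bad3SA range lay inside the Bad+/+ range. Ltbr, the lymphotoxin beta receptor gene, varied least of all, with 93.7, 103 and 125 CPM in Bad3SA and 84.9, 103 and 119 CPM in Bad+/+ tumours. Its log2 fold change was 0.03 with a 95% interval of -0.20 to 0.25 (edgeR adjusted p = 0.913), so a change of the size seen for Tnfrsf21 lies outside that interval. The direction of both Tnfrsf12a and Ltbr turned in fits without single tumours and without the filter on low counts.

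Tnfrsf19, which encodes TROY, had 36.7, 38.4 and 127 CPM in Bad3SA tumours and 36.1, 56.6 and 81.7 CPM in Bad+/+ tumours. Bad3SA 1, at 127 CPM, was far above the other 5 Bad3SA tumours, which lay between 36.7 and 50.4 CPM (log2 fold change -0.10, SE 0.33, edgeR adjusted p = 0.889). Without Bad3SA 1 the log2 fold change was -0.57. Tnfrsf11a, which encodes RANK, a receptor needed for mammary gland development, ran from 45.8 to 62.2 CPM in Bad3SA and 38.5 to 81.4 CPM in Bad+/+ tumours. Tnfrsf1b, which encodes TNFR2, had 10.3, 26.4 and 51.7 CPM in Bad3SA and 12.1, 20.2 and 36.9 CPM in Bad+/+ tumours, with Bad3SA 2 and 3 above and Bad3SA 6 below the Bad+/+ range (log2 fold change 0.32, SE 0.37, edgeR adjusted p = 0.673). Without Bad3SA 4 to 6 it was 0.85 (edgeR adjusted p = 0.320).

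Some of these genes followed markers of non-epithelial cells from tumour to tumour. The 35 tested genes were set against 6 marker lists (T cell, B cell, macrophage, endothelial, keratinocyte and skeletal muscle) across the 12 tumours, 210 pairs in all, and 5 pairs had a Pearson correlation with an adjusted permutation p under 0.05. None of the 5 was with the B cell, keratinocyte or skeletal muscle markers. Tnfsf14, which encodes LIGHT, followed the endothelial markers, with r = 0.876 (permutation p = 0.00012, adjusted p = 0.0252) and rho = 0.909 (permutation p = 0.00012, adjusted p = 0.0252). Tnfrsf1b followed the macrophage markers, with r = 0.826 (permutation p = 0.00101, adjusted p = 0.047) and rho = 0.867 (permutation p = 0.00046, adjusted p = 0.0483). Within the genotypes r was 0.900 in Bad3SA and 0.836 in Bad+/+ tumours for Tnfsf14, and 0.870 in Bad3SA and 0.810 in Bad+/+ tumours for Tnfrsf1b. Without the 2 tumours farthest from the median of the markers r was 0.836 for Tnfsf14 and 0.753 for Tnfrsf1b. Tnfsf14 was low, at 0.135 to 0.829 CPM in Bad3SA and 0.183 to 0.744 CPM in Bad+/+ tumours. With the macrophage markers it had r = 0.760 (permutation p = 0.00474, adjusted p = 0.0829) and rho = 0.762 (permutation p = 0.00594, adjusted p = 0.165), which did not pass.

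The other 3 pairs passed by Pearson's r only. Tnfsf13b followed the macrophage markers, with r = 0.833 (permutation p = 0.00112, adjusted p = 0.047) and rho = 0.727 (permutation p = 0.00917, adjusted p = 0.197). Tnfrsf13b followed the T cell markers, with r = 0.877 (permutation p = 0.00054, adjusted p = 0.0378) and rho = 0.811 (permutation p = 0.00194, adjusted p = 0.102), and the macrophage markers, with r = 0.840 (permutation p = 0.00041, adjusted p = 0.0378) and rho = 0.755 (permutation p = 0.00628, adjusted p = 0.165). Without the 2 farthest tumours r was 0.754 for Tnfsf13b, 0.690 for Tnfrsf13b with T cell markers and 0.757 for Tnfrsf13b with macrophage markers. Within the genotypes these were 0.860 in Bad3SA and 0.953 in Bad+/+ tumours for Tnfsf13b. For Tnfrsf13b they were 0.665 in Bad3SA and 0.947 in Bad+/+ tumours with T cell markers, and 0.748 in Bad3SA and 0.930 in Bad+/+ tumours with macrophage markers.

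The BAFF receptor gene Tnfrsf13c ran against the B cell markers, with r = -0.656 (permutation p = 0.00698, adjusted p = 0.0916) and rho = -0.622 (adjusted permutation p = 0.284), and did not pass. Without the 2 tumours farthest from the median, Bad3SA 1 and Bad+/+ 6, r was -0.34, so the pooled value rests on those tumours. Within the genotypes r was -0.788 in Bad3SA (exact permutation p = 0.075) and -0.883 in Bad+/+ tumours (exact permutation p = 0.0278). The sums of the 10 macrophage markers ran from 382 to 925 CPM in Bad3SA tumours and 333 to 933 CPM in Bad+/+ tumours, those of the 8 endothelial markers from 107 to 229 CPM in Bad3SA and 112 to 216 CPM in Bad+/+ tumours, and those of the 9 B cell markers from 2.95 to 4.62 CPM in Bad3SA and 1.29 to 3.98 CPM in Bad+/+ tumours. Of these lists, only the B cell markers Cr2 and Ms4a1 were at 0 in some tumour, and none of the marker genes tested passed between the genotypes.

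**Figure D4:**
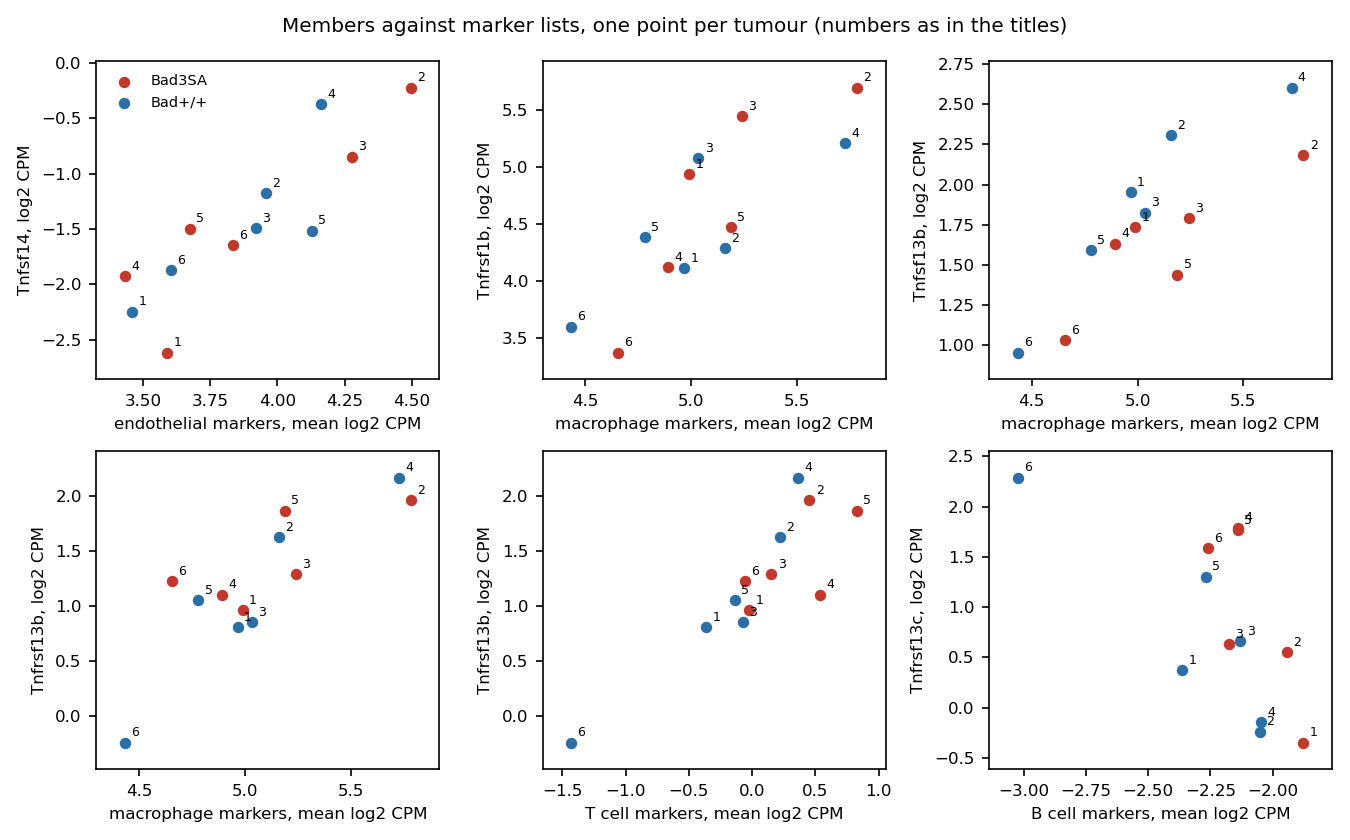
Log2 CPM of a gene (vertical) against the mean log2 CPM of a marker list (horizontal) for the 5 pairs that passed and for Tnfrsf13c with the B cell markers; each point is a tumour, numbered, with Bad3SA in red and Bad+/+ in blue. Bad+/+ 6 is at the low end of the macrophage, T cell and B cell lists, and Tnfsf14 rises with the endothelial markers across both colours.

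The transcripts of signalling proteins below these receptors did not differ detectably either. A list of 33 adaptor, kinase, ubiquitin-system and NF-κB genes had none that passed, where 1.38% of all genes did. It had 5 at an unadjusted p under 0.05, 0 above and 5 below 0, against 16.2% of all genes, 7.18% higher and 9.02% lower. It had a median log2 fold change of -0.05, against 0.00 over all genes. Traf6, an adaptor that also serves toll-like receptors, had the smallest p. It averaged 38.7 ± 8.26 CPM in Bad3SA and 52.6 ± 5.59 CPM in Bad+/+ tumours (SD, n = 6 each), with Bad3SA 2 to 6 below every Bad+/+ tumour, and its log2 fold change was -0.44 (SE 0.14, edgeR adjusted p = 0.164). Map3k7, which encodes the kinase TAK1, averaged 65.1 ± 8.87 CPM in Bad3SA and 79.8 ± 10.5 CPM in Bad+/+ tumours (log2 fold change -0.29, SE 0.12, edgeR adjusted p = 0.246).

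Of 24 NF-κB target genes that TNF induces, 22 were tested and none passed, where 1.38% of all genes did. At an unadjusted p under 0.05 there were 0 above and 1 below 0, against 7.18% and 9.02% of all genes. The median log2 fold change of the list was 0.01. Tnfaip2 averaged 17.6 ± 6.59 CPM in Bad3SA and 30.1 ± 5.89 CPM in Bad+/+ tumours (SD, n = 6 each), and its log2 fold change was -0.78 (SE 0.23, edgeR adjusted p = 0.138). Saa3, an acute-phase gene, averaged 7.79 ± 4.08 CPM in Bad3SA and 3.31 ± 4.19 CPM in Bad+/+ tumours (log2 fold change 1.24, SE 0.62, edgeR adjusted p = 0.341). Bad+/+ 4 held 11.8 CPM of Saa3 and every other Bad+/+ tumour was at or below 2.55 CPM. Without Bad+/+ 4 the log2 fold change of Saa3 was 2.28 (edgeR adjusted p = 0.0206), in a fit where 1.72% of all genes passed. That fit leaves out the highest Bad+/+ value, so its p gives no separate support. Bad+/+ 4 also had the highest sums of 5 neutrophil markers, 6 skeletal muscle markers and 6 keratinocyte markers. These were 74.4, 1084 and 363 CPM, against ranges over the Bad3SA tumours of 6.32 to 17.8, 2.21 to 153 and 22.7 to 204 CPM. The neutrophil marker Ly6g, the muscle markers Myh1, Myh4 and Tnnt3 and the keratinocyte marker Krtdap were at 0 in some tumour, and the part of these cells in the Saa3 value was not tested. The chemokine gene Ccl20 did not pass the filter in the fit of all 12 tumours. DESeq2, which called 4.21% of all genes, gave it a log2 fold change of -2.32 (adjusted p = 0.00453).

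A last list held 8 family genes that the naming rule does not reach. Of these, 7 were tested and none passed in edgeR, where 1.38% of all genes did. The smallest p belonged to Edar and Eda, the receptor and ligand of the ectodysplasin pathway of hair, teeth and skin glands. Edar averaged 2.75 ± 1.58 CPM in Bad3SA and 1.00 ± 0.377 CPM in Bad+/+ tumours (SD, n = 6 each), with 4 Bad3SA tumours above every Bad+/+ tumour, and its log2 fold change was 1.46 (SE 0.40, edgeR adjusted p = 0.105). It was 5.31, 3.13 and 3.61 CPM in Bad3SA 1, 2 and 3, the same tumours that were high for Tnfrsf23, Tnfrsf9 and Tnfrsf8. Bad3SA 4, 5 and 6 were lower, at 1.36, 1.87 and 1.24 CPM. Without them the log2 fold change of Edar was 2.02 (edgeR adjusted p = 0.0363), in a fit where 0.795% of all genes passed. These low tumours were left out after the data were seen, so that p gives no separate support. Eda averaged 3.05 ± 0.922 CPM in Bad3SA and 5.00 ± 1.64 CPM in Bad+/+ tumours (log2 fold change -0.71, SE 0.28, edgeR adjusted p = 0.248). DESeq2, which called 4.21% of all genes, called Edar, at 1.46 (adjusted p = 0.00894), and no other gene of this list.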

How the data were processed

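Polyadenylated RNA of 12 breast tumours was sequenced, 6 per genotype, each tumour from its own mouse, with groups taken from the sample titles. The authors deposited raw counts per Ensembl gene as whole numbers. Among the tools in the submitters' processing notes are DESeq2, STAR 2.7.9a and fastp 0.23.1, with GRCm38 as the build. The counter, its annotation and its strand option were not given in the sources used here. The authors' deposited comparison, per the file headers, gives for each gene the p-value before and after adjustment, the log2 fold change with its standard error, the Wald score and the mean normalised signal. Its direction, Bad+/+ over Bad3SA, was settled by correlation with the counts (Spearman rho -0.997 over 18019 genes). The count table has no unnamed entry.

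Counts were filtered with filterByExpr in edgeR 4.0.16, which left 18019 genes, scaled with TMM, and tested with the robust quasi-likelihood F test, and p was adjusted over all genes (Benjamini-Hochberg, called under 0.05). Standard errors were obtained as |log2 fold change| over the root of F. R 4.3.3, limma 3.58.1, DESeq2 1.42.0, Python 3.11.15, SciPy 1.17.1 and matplotlib 3.10.9 were used. Exon lengths, overlaps and positions come from GENCODE M21 (GRCm38), in which 260 of the 55487 identifiers and none of the 39 genes lack an entry. Marker correlations are two-sided permutation tests with 100000 resamples on mean log2 CPM (prior count 2), adjusted over 210 pairs.

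The genes and lists were chosen with earlier results of these data known. By rule, per-tumour values are given for the 8 genes with the smallest p, the 5 with the highest level per kb, the 5 with the largest spread over tumours, and the 2 smallest p of each list; the other genes named were chosen after their values were seen. Other settings tried were scaling by DESeq2, its Wald test, no filter or a minimum of 1 CPM in 6 tumours, a term for end-point age, a block on the number in the title, and leaving out each tumour. Leaving out Bad3SA 4, 5 and 6 was chosen after seeing the data. One further ligand gene of the family is not reported here.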

Additional observations from a re-analysis of the deposited data

Results flagged for a closer look

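In a group of 6 tumours, a single tumour far from the rest was looked for by Dixon's criterion for each of the 35 tested genes in each genotype, 70 groups in all. It marked 3, all in Bad3SA, and chance alone marks about 1 in 20. Tnfrsf19 was at 127 CPM in Bad3SA 1, with the next tumour at 50.4 CPM. Tnfrsf18 was at 5.81 CPM in Bad3SA 5, with the next at 3.09 CPM. Tnfrsf11a was at 62.2 CPM in Bad3SA 5, with the next at 50.8 CPM, and 2 Bad+/+ tumours were higher still, at 66.3 and 81.4 CPM.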

How the results depend on the processing

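The count of genes called over all genes moved from setting to setting, and the count among the 39 hardly did. Against 249 in the reported fit, the DESeq2 Wald test called 998 genes, a minimum of 1 CPM in 6 tumours 163, end-point age as a covariate 73, and the fit without Bad3SA 4, 5 and 6 151. Leaving out each tumour gave 147 to 315. Among the 39, DESeq2 called 1 and each edgeR setting 0, including every fit without 1 tumour. The NF-κB target list had 1 call in DESeq2 (Ccl20, lower) and 0 to 1 without single tumours: Saa3 without Bad+/+ 4 and Ccl20 without Bad+/+ 5 (log2 fold change -2.44). The family genes outside the naming rule had 1 call in DESeq2 and 1 without Bad3SA 4 to 6, Edar in both. The median log2 fold change of the set stayed between 0.10 and 0.17 without single tumours. The median over all genes was 0.16 in DESeq2 and 0.13 with no filter, against 0.12 and 0.10 for the set.

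With the title number as a replicate block, 105 genes were called, none of the 39 among them, and Tnfrsf25 had an adjusted p of 0.397. The deviations of same-numbered tumours from their group means had correlations from -0.271 to 0.283. This check cannot show whether the numbers pair the samples, because paired tumours need not deviate together.

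Over the 35 tested genes, 11 directions turned with end-point age, 8 without Bad3SA 4 to 6, 4 with the block and 2 with no filter. Of the genes with a printed fold change, with the block, Tnfrsf26 was at -0.0481 and Tnfrsf23 at -0.05. With no filter, Tnfrsf12a was at -0.0173 and Ltbr at -0.0083. With age, Ltbr was at -0.0421, Tnfrsf19 at 0.22, Cd40 at -0.18, Tnfrsf18 at -0.0809 and Tnfrsf10b at 0.13. Without Bad3SA 4 to 6, Tnfsfm13 was at -0.29, Tnfrsf1a at 0.20, Tnfrsf19 at 0.29 and Tnfrsf18 at -0.23. Without single tumours the log2 fold change ran from -0.0496 to 0.19 for Tnfrsf12a, -0.12 to 0.0298 for Tnfrsf1a, -0.0312 to 0.0714 for Ltbr, -0.57 to 1.35e-05 for Tnfrsf19, -0.23 to 0.30 for Tnfrsf26, -0.0472 to 0.49 for Tnfrsf23, -0.15 to 0.25 for Tnfrsf18, -0.00286 to 0.39 for Tnf and -0.28 to 0.0742 for Tnfrsf10b. Tnfrsf25 kept its direction, at 1.04 to 1.45 with adjusted p between 0.0786 and 0.29. The causes were not tested. The filter left out 4 of the 39 genes for low counts, and none of them passed with no filter.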
